A study of Mus musculus with 4 samples.

Results

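Repeat-derived peaks are peaks of a chromatin accessibility assay that lie mostly in repeated DNA and away from gene starts. Whether each marks open chromatin was not tested. Here a peak was counted as repeat-derived when it was autosomal, when at least 50% of its bases were soft-masked (written in lower case as repeats) in the RefSeq copy of the mm10 mouse genome, and when its summit lay more than 2 kb from every transcription start site (TSS) of the GENCODE annotation. Of 119365 peaks deposited for 4 libraries, 75753 were autosomal and distal in this sense, and 10905 of those were repeat-derived. Merged across libraries where they shared at least 1 base, the 10905 peaks formed 5007 regions.

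The peaks come from ATAC-seq, in which Tn5 transposase inserts sequencing adapters into accessible DNA, on 50000 nuclei per library from whole dissected hippocampi at postnatal day 0. Each group had 2 libraries. The cKO mice carried Kdm2bEmx1-delta-CxxC: Emx1-Cre, active in the dorsal telencephalon and not in every cell of a hippocampus, removed exon 13, which encodes the CxxC zinc finger by which KDM2B binds CpG-rich DNA. Ctrl mice were Kdm2bfl/+ or Kdm2bfl/fl, both keeping the floxed exon, and the labels do not say which Ctrl library had which genotype. The labels name neural progenitor cells as the source while titles and protocol name hippocampus, and they do not say whether libraries came from separate animals, so that a p-value here measures only the spread between these libraries.

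Repeated DNA in the mouse genome includes LINE-1 (L1) retrotransposons, which copy themselves through RNA and in full length carry a promoter of tandem monomers followed by 2 open reading frames, as well as SINEs such as B1, long terminal repeats, simple tandem repeats and the hexamer arrays of telomeres. Most copies are silenced by DNA methylation and repressive histone marks, and older copies can serve as regulatory elements. A read that fits many copies equally well cannot be assigned to 1 of them from its sequence, so a peak in such DNA may hold fragments from other copies.

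Sequences that stand for the main kinds of member are shown first, each from the plus strand of mm10 as given by RefSeq. The 3 largest groups of alike sequences, called families 1, 2 and 3 below by size, held 3139 of the 5007 regions. For families 1 and 3 the strongest region is shown (chr2:95288024-95288223 and chr5:102700933-102701132), with the 31 bases at the summit in capitals; those 31 bases occur 15888 and 410 times in the genome.
family 1: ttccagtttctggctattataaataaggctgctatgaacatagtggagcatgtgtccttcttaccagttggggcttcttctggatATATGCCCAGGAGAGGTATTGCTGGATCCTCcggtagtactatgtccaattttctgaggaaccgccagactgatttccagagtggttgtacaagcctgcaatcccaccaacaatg
family 3: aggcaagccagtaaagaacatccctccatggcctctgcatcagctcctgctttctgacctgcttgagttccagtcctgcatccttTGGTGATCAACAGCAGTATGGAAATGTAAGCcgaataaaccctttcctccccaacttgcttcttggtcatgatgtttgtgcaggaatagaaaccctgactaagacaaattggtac

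For family 2, which is GC-rich, 212 bases around the summit are shown for the strongest region (chr2:23939463-23939674) and for the region that aligned with the most others (chr3:48434457-48434668, 402 partners), with CG dinucleotides in capitals. Neither is typical of the family in every respect: their GC contents of 54.8% and 60.7% were below its lower quartile of 62.7%. The strongest repeated itself with 48.2% identity, under the limit of 50% used below, and the other at an interval of 199 bp with 61.0% identity, its 31 summit bases occurring 2 times in the genome.
family 2, strongest: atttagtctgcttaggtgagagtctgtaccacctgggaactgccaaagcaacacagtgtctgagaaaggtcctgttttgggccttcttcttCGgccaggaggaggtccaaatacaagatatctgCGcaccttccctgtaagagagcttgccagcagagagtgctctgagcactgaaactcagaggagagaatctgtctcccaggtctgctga
family 2, most partners: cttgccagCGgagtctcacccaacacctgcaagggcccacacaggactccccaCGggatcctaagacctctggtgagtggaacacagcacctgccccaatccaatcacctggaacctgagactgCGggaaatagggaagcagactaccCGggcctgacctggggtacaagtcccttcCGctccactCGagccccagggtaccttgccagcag

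Simple tandem repeats are represented by the strongest array that is not telomeric (chr17:13551864-13551983) and by the strongest region of family 5, an array of GGTA and GATA units in an intron of Cpeb4 (chr11:31922670-31922789), with the 31 summit bases in capitals.
tandem array on chromosome 17: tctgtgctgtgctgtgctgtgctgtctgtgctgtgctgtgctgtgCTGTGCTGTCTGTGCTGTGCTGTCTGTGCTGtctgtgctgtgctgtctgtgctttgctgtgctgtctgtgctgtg
family 5: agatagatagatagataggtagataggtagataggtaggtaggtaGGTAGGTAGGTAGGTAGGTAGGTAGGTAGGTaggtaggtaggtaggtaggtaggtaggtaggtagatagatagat

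The libraries were unequal before any repeat was considered. Mean genome depth, recovered from the deposited folds and p-values, was 1.62 fragments per base for Ctrl replicate 1, 3.46 for Ctrl replicate 2, 2.07 for cKO replicate 1 and 1.81 for cKO replicate 2, while the lists held 46389, 7037, 21404 and 44535 peaks. Ctrl replicate 2 thus had the deepest coverage and the fewest peaks. Of 10 marker genes of the dorsal telencephalon, Ctrl replicate 1 and cKO replicate 2 had a peak within 2 kb of a TSS for 10, cKO replicate 1 for 7 and Ctrl replicate 2 for 0. Of 3 interneuron genes, Ctrl replicate 1 had such a peak at Dlx1 and Dlx2 and cKO replicate 2 at Dlx2, and of 2 oligodendrocyte genes Ctrl replicate 1 had one at Olig1; the other 2 libraries had none of these 5. No list had one at either of 2 microglial genes or at any of 4 genes of other organs. The 4 comparisons between groups are therefore given with and without Ctrl replicate 2, as are recurrence and shared-region depth for the repeat-derived regions as a whole. Where depth is given without its values, the regions are still those with a peak in its list. Recurrence and depth by copy number or family include it throughout.

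Ctrl replicate 1 had 2070 repeat-derived peaks, Ctrl replicate 2 had 3530, cKO replicate 1 had 2632 and cKO replicate 2 had 2673. The 2 Ctrl libraries were the extremes, with both cKO libraries in between. The spread depended on where each list was cut: among the 7037 strongest peaks of each list the numbers were 77, 3530, 605 and 162, and with at least 20 fragments at the summit 365, 1828, 702 and 678, in the same order of libraries. The order changed with at least 25% of bases masked (4165, 3719, 3210 and 4505), where the 2 cKO libraries were the extremes. The mean was 2652.5 ± 28.99 (SD, n = 2) in cKO and 2800 ± 1032 (SD, n = 2) in Ctrl, a difference of −147.5 peaks with an exact two-sided permutation p of 1 (1 after Benjamini-Hochberg adjustment over 4 tests). The smallest p that this exact permutation test can give with 2 against 2 libraries is 0.333, so none of the 4 comparisons could pass a threshold of 0.05 by it. Without Ctrl replicate 2 the difference was 582.5 peaks, with the cKO mean higher.

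As a share of distal autosomal peaks, repeat-derived peaks made up 6.82% of 30367 in Ctrl replicate 1 (95% Wilson interval 6.54 to 7.11), 75.2% of 4694 in Ctrl replicate 2 (73.9 to 76.4), 22.5% of 11717 in cKO replicate 1 (21.7 to 23.2) and 9.23% of 28975 in cKO replicate 2 (8.90 to 9.56). The intervals cover counting error only. Of the bases in distal autosomal peaks, members held 14.2%, 84.2%, 44.0% and 18.9% in the same order, beside a masked share of 34.2% over all distal autosomal sequence. The cKO mean was 15.8% ± 9.36 (SD, n = 2) and the Ctrl mean 41.0% ± 48.4 (SD, n = 2), a difference of −25.2 percentage points (exact permutation p = 1, adjusted p = 1). Without Ctrl replicate 2 it was 9.03 points.

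**Figure D1:**
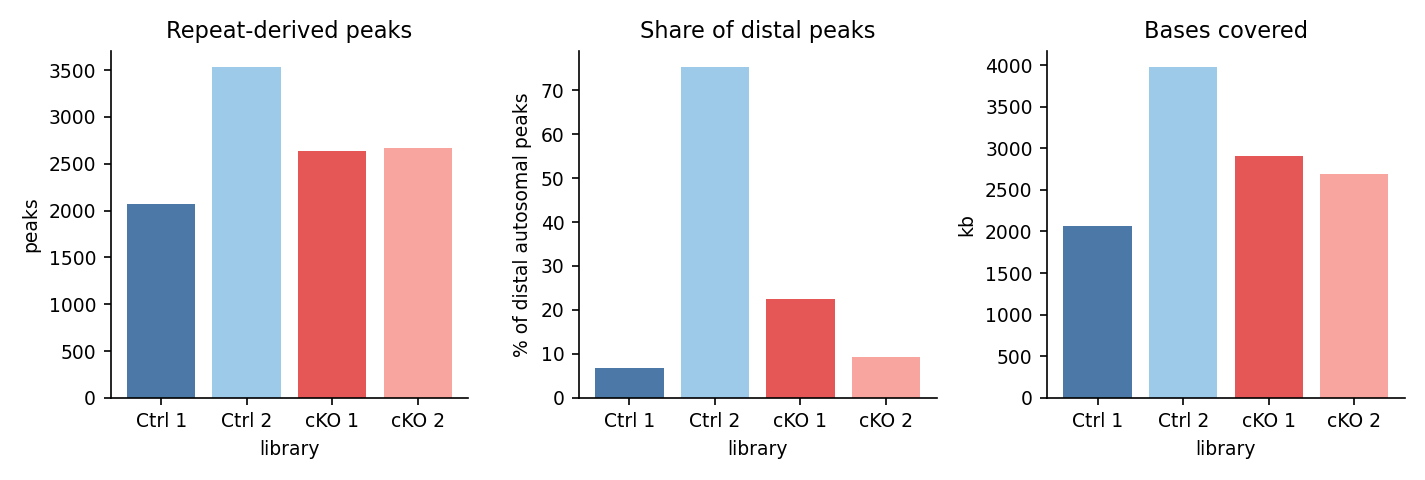
Bars give, for each of the 4 libraries, the number of repeat-derived peaks, their percentage among distal autosomal peaks and the kilobases they covered; each bar is 1 library, so there is no error bar. The number spans 2070 to 3530 while the percentage spans 6.82 to 75.2, and both cKO bars stand between the 2 Ctrl bars in every panel.

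The members covered 2066 kb for Ctrl replicate 1, 3974 kb for Ctrl replicate 2, 2906 kb for cKO replicate 1 and 2688 kb for cKO replicate 2. The cKO libraries again fell between the Ctrl libraries, with means of 2797 ± 155 kb and 3020 ± 1349 kb (SD, n = 2 each) and a difference of −223 kb (exact permutation p = 1, adjusted p = 1), which became 731 kb without Ctrl replicate 2. Members were wider than the other distal peaks in every list: the medians were 659, 902, 841 and 701 bp for Ctrl replicates 1 and 2 and cKO replicates 1 and 2, beside 385, 433, 345 and 382 bp. The widest member spanned 30000 bp near Apba2 on chromosome 7 and was called in Ctrl replicate 2.

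Most members were shallow. Depth at the summit had a median of 12 fragments for Ctrl replicate 1, 20 for Ctrl replicate 2, 14 for cKO replicate 1 and 13 for cKO replicate 2, while the other distal peaks had 16, 19, 17 and 18. In multiples of each library's mean genome depth, which is the scale used for depth below, the member medians were 7.40, 5.77, 6.75 and 7.20, and those of the other distal peaks 9.86, 5.48, 8.20 and 9.96. Only in Ctrl replicate 2 were members deeper than the other distal peaks by this median. The lowest depth that could be called was set by each library's own threshold, so medians of called peaks are cut off from below at different levels.

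Ranked by the deposited −log10 p-value within their own list, with 100 for the strongest peak, members had a median percentile of 22.6 for Ctrl replicate 1, 50.0 for Ctrl replicate 2, 33.2 for cKO replicate 1 and 28.05 for cKO replicate 2. The other distal peaks had medians between 43.1 and 44.8. The cKO mean of 30.6 ± 3.61 and the Ctrl mean of 36.3 ± 19.4 (SD, n = 2 each) differed by −5.72 percentile points (exact permutation p = 1, adjusted p = 1), or 8.004 points without Ctrl replicate 2. At the top of the lists, 18, 40, 28 and 19 members ranked among the 100 strongest peaks of Ctrl replicates 1 and 2 and cKO replicates 1 and 2, of 46, 71, 60 and 46 distal autosomal peaks there.

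Many of the deepest members were chromosome ends. On 12 of the 19 autosomes a member lay within 2 kb of the gap at the distal end of the assembly, and on 11 of these it was present in all 4 lists. At the end of chromosome 14 (chr14:124801560-124802235), 59.1 kb from the nearest TSS, the peak ranked 7, 3, 5 and 5 in Ctrl replicates 1 and 2 and cKO replicates 1 and 2, at 1646, 1462, 1177 and 1460 times the mean genome depth. The peak at the end of chromosome 12 (chr12:120028666-120029013, 28.3 kb from a TSS) ranked 10, 4, 9 and 8, at 894, 787, 596 and 791 times the mean. The one at the end of chromosome 7 (chr7:145340934-145341449, 26.4 kb from the TSS of Mrgprd) ranked 19, 5, 15 and 14, at 669, 711, 484 and 617 times the mean. The 6 regions with the highest mean percentile in all 4 lists comprised these 3, the ends of chromosomes 2 and 18, and the tandem array on chromosome 17.

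Peaks at chromosome ends went with long arrays of the telomere hexamer, with 1 exception. Counted on the assembled strand, the hexamer occurred 35 to 114 times in the last 1000 assembled bases of the 11 chromosomes whose end peak carried the hexamer, and 6 to 35 times on the 7 chromosomes with no end peak, which were 5, 6, 8, 9, 11, 15 and 17. The end of chromosome 4 had a peak in all 4 lists and 0 hexamers in that window; it was the shallowest end, at 50.5, 81.7, 59.3 and 50.4 times the mean depth, and ranked 993, 44, 65 and 612. The end of chromosome 13, with 35 hexamers, had a peak in Ctrl replicate 1 and cKO replicate 2 only, at 272 and 262 times the mean depth, whereas the end of chromosome 11, also with 35, had none. The authors' removal of blacklisted regions may have taken some ends out; this was not tested.

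**Figure D2:**
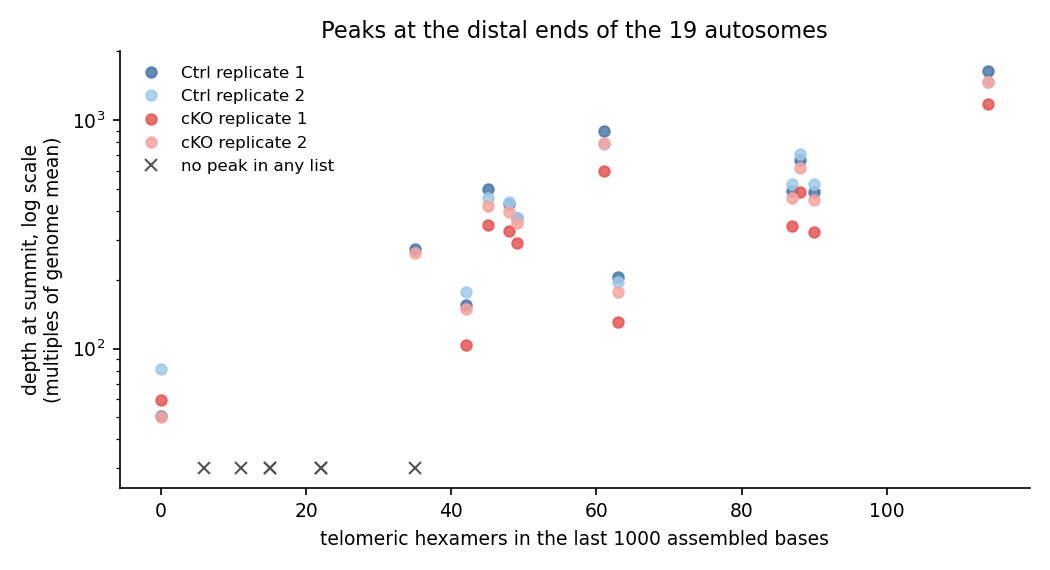
Each point is the peak nearest the distal end of 1 autosome in 1 library; the x axis counts telomeric hexamers in the last 1000 assembled bases and the y axis gives depth at the summit on a log scale, in multiples of the mean genome depth. Crosses mark the 7 ends without a peak, placed at the foot of the plot, and those with equal counts coincide. The cKO replicate 1 points are the lowest of the 4 at 10 of the 11 ends shared by all lists.

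Over the 10 hexamer-bearing ends with a peak in all 4 lists, the mean depth was 585 and 565 times the genome mean in Ctrl replicates 1 and 2, and 412 and 526 in cKO replicates 1 and 2. The groups did not overlap. Their means were 575 ± 14.3 in Ctrl and 469 ± 80.7 in cKO (SD, n = 2 each), and at 9 of the 10 ends the cKO values were both lower than either Ctrl value. Among all autosomal regions with a peak in all 4 lists, the repeat-derived ones included, 3.73% had both cKO values below both Ctrl values. In 8.34% both were above. The ends share 1 sequence and are not independent of one another, and this comparison was chosen after its values were seen, so no test was made. Without Ctrl replicate 2, cKO replicate 2 stood below Ctrl replicate 1 at 11 of the 11 ends shared by all lists and cKO replicate 1 at 10. Over all autosomal regions with a peak in all 4 lists, 60.6% were lower in cKO replicate 2 than in Ctrl replicate 1 and 68.3% in cKO replicate 1, the same direction as the ends. The 1122 repeat-derived regions in all 4 lists mostly went the other way, with 60.5% higher in both cKO libraries than in Ctrl replicate 1. Against both Ctrl libraries, 21.1% of them were higher in both cKO libraries and 7.31% lower.

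Arrays of other short units supplied further deep members. The tandem array on chromosome 17 (chr17:13550700-13553160), in an intron of a gene that is not protein-coding, ranked 28, 6, 10 and 21, at 465, 798.7, 740 and 524 times the mean depth. In Ctrl replicate 2 and cKO replicate 1 it was deeper than every chromosome end except that of chromosome 14. In Cpeb4, which encodes a regulator of translation, this array of 4-base units (chr11:31922596-31922855) was held by Ctrl replicates 1 and 2 and cKO replicate 1 at 64.7, 99.9 and 92.6 times the mean. By count such arrays were rare: perfect tandem repeats with units of 1 to 6 bases filled at least 50% of 63, 155, 87 and 61 members, or 3.04%, 4.39%, 3.31% and 2.28% of the members of Ctrl replicates 1 and 2 and cKO replicates 1 and 2. Among the 3 strongest members of each list, the only one that was neither an end nor a tandem array lay in an intron of Il31ra, an interleukin receptor gene (chr13:112578171-112578714). It was 59.2% masked, and its depth was 589, 116, 362 and 388 times the mean.

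Most members had summit sequences that recur in the genome. The 31 bases centred on the summit occurred a median of 102 times for Ctrl replicate 1, 626.5 times for Ctrl replicate 2, 366 times for cKO replicate 1 and 165 times for cKO replicate 2. They occurred only once for 19.8%, 9.63%, 13.3% and 18.9% of members. Among the other distal peaks, 97.5%, 35.4%, 94.3% and 96.9% had a summit that occurs once, so that Ctrl replicate 2 stood apart there too. The rule does not use copy number, but masking and copy number both measure repetition.

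**Figure D3:**
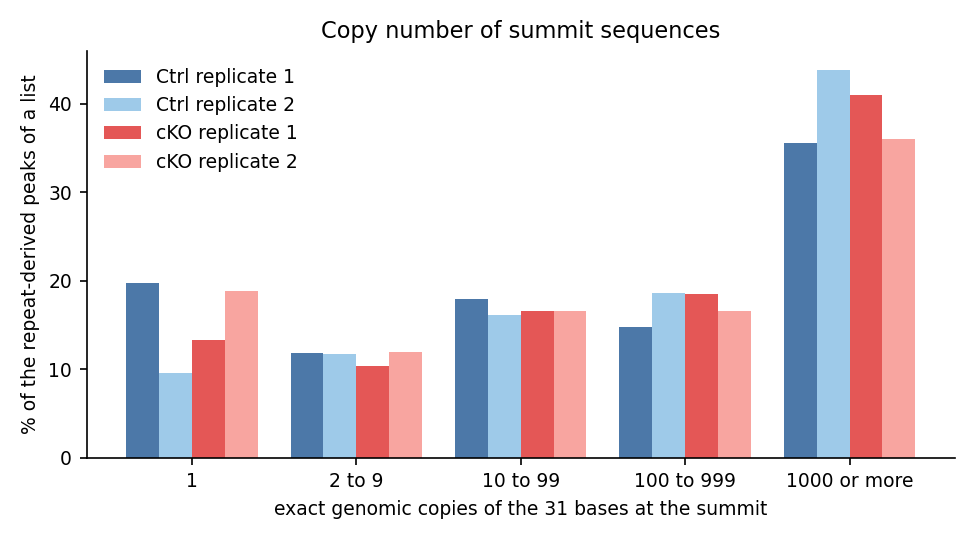
Bars give the percentage of each library's repeat-derived peaks in 5 classes of exact copy number of the 31 summit bases, with 1 bar per library. In every library the class of 1000 or more copies is the largest, from 35.6% in Ctrl replicate 1 to 43.8% in Ctrl replicate 2.

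Members with a summit that occurs once numbered 409, 340, 351 and 504 in Ctrl replicates 1 and 2 and cKO replicates 1 and 2. These can be placed by their own sequence, and by number Ctrl replicate 2 had the fewest of them although it had the most members overall. Their median widths were 368, 870, 732 and 436.5 bp, and their median depths 7.40, 5.48, 6.75 and 7.75 times the mean. Merged, 909 regions had such a summit, of which 51.9% had a peak in at least 2 lists and 11.9% in all 4. Of the 1837 regions with 1000 or more copies, 65.5% had a peak in at least 2 lists and 29.8% in all 4. This contrast did not hold in every list. In the same order of libraries, lists held 54.3%, 37.8%, 39.2% and 61.4% of the regions with 1 copy. They held 40.8%, 84.5%, 58.3% and 55.9% of those with 1000 or more. Ctrl replicate 1 and cKO replicate 2 thus held a larger share of the regions with 1 copy.

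Repeat-derived regions recurred in all 4 lists more often than the other distal regions did. Of 5007 regions, 2017 had a peak in 1 list, 1142 in 2, 726 in 3 and 1122 in all 4, where any deposited peak that shared at least 1 base counted. The 1122 are 22.4% of the repeat-derived regions, while 430 of 35572 other distal autosomal regions (1.21%) were in all 4 lists. Without Ctrl replicate 2 the contrast was smaller: of the regions with a peak in any of the other 3 lists, 31.2% of 4010 repeat-derived and 23.2% of 35181 other regions were in all 3. No test was made of these shares. Repeat-derived regions in more lists were wider, with medians of 342, 721, 1023 and 1819 bp for 1, 2, 3 and 4 lists. How far width bears on recurrence was not tested. For at least 2 lists the shares were closer, at 2990 regions or 59.7% and 20096 regions or 56.5%. The other regions were mostly shared by Ctrl replicate 1 and cKO replicate 2, alone (31.5%) or with cKO replicate 1 (21.8%); the repeat-derived regions had 4.31% and 2.62% in those patterns.

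Ctrl replicate 2 held 3536 of the repeat-derived regions, 997 of them in no other list. Ctrl replicate 1 held 2120 with 284 found nowhere else, cKO replicate 1 held 2602 with 317, and cKO replicate 2 held 2709 with 419. The largest pattern of 2 lists joined a Ctrl and a cKO library, Ctrl replicate 2 with cKO replicate 1, at 422 regions. Of the regions in Ctrl replicate 1, 68.9% were also in Ctrl replicate 2 and 73.5% in cKO replicate 2; of those in cKO replicate 1, 78.8% were in Ctrl replicate 2 and 65.3% in cKO replicate 2. For each of the 4 lists, the list that held the largest share of its regions was of the other group. For both cKO lists that was Ctrl replicate 2, which held the most regions. Without it, cKO replicate 1 shared more with cKO replicate 2 (65.3%) than with Ctrl replicate 1 (54.5%). Likewise, cKO replicate 2 shared more with cKO replicate 1 (62.7%) than with Ctrl replicate 1 (57.5%).

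**Figure D4:**
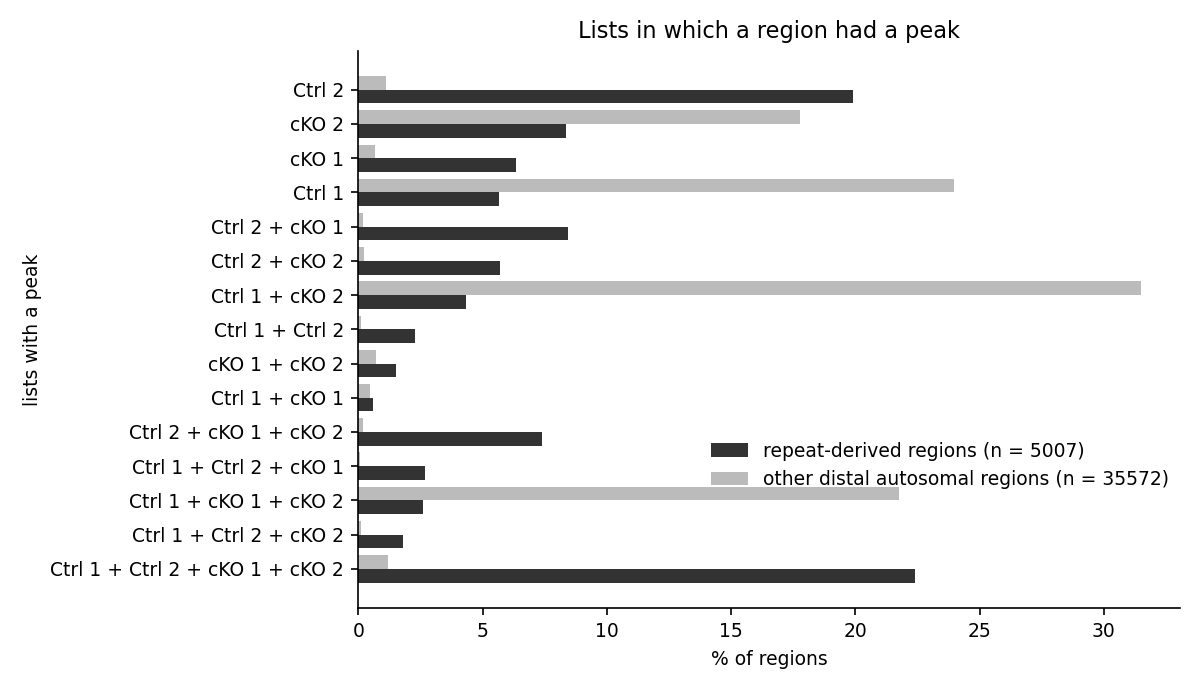
Bars give the percentage of repeat-derived regions (dark, n = 5007) and of other distal autosomal regions (light, n = 35572) with a peak in exactly the lists named on the y axis. The pattern of all 4 lists holds 22.4% of repeat-derived and 1.21% of other regions.

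Few regions followed the genotype across both Ctrl libraries. Presence in cKO replicates 1 and 2 without either Ctrl library was found for 75 repeat-derived regions, or 1.498%, beside 0.693% of all 56723 autosomal regions. The reverse pattern was found for 114, or 2.28%, beside 0.287%. By mean percentile, the strongest region of the first kind (chr6:35940091-35940849, 13.5 kb from the nearest TSS) stood at 10.6 and 12.2 times the mean depth in cKO replicates 1 and 2. Next came regions in Slc8a3, a sodium-calcium exchanger gene (chr12:81278687-81278909), and 13.5 kb from the TSS of the odorant receptor gene Olfr1458 (chr19:13120016-13120545), each at 8.68 and 8.30. Of the second kind, the strongest lay in an intron of Cdkal1, a tRNA-modifying enzyme gene (chr13:29750175-29750887), at 8.01 and 6.93 times the mean depth in Ctrl replicates 1 and 2. The others were at chr6:117793134-117794373 (6.78 and 7.51) and chr2:3050206-3051039 (6.78 and 7.22). These 6 regions stood between 6.78 and 12.2 times the mean depth, and a missing peak in another list is not a measured depth of 0. The counts of 75 and 114 depended on Ctrl replicate 2. A further 371 repeat-derived regions were in both cKO lists and Ctrl replicate 2 but not in Ctrl replicate 1. They made up 7.41%, beside 0.186% of the other distal regions, and without Ctrl replicate 2 they would join the 75. In the other direction, 284 (5.67%, beside 24.0%) were in Ctrl replicate 1 alone and would join the 114.

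The summit sequences of the strongest region of each kind are given with the 31 summit bases in capitals, from chr6:35940146-35940295 and chr13:29750642-29750791. The first 31 bases occur 1 time in the genome and the second 8 times.
both cKO lists: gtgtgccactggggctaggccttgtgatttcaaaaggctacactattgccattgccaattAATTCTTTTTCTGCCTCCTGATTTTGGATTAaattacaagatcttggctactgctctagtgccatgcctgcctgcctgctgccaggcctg
both Ctrl lists: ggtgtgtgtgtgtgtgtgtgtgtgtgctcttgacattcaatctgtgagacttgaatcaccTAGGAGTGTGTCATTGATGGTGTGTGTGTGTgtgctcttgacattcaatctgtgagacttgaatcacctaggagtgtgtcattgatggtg

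In the 1122 regions with a peak in all 4 lists, median depth was 8.01, 10.7, 10.1 and 9.96 times the mean in Ctrl replicates 1 and 2 and cKO replicates 1 and 2. Over all 3058 autosomal regions in all 4 lists, promoters and the repeat-derived regions included, the medians were 36.4, 6.93, 16.9 and 32.1. The repeat-derived regions therefore differed little between libraries on this scale, and were deepest in Ctrl replicate 2, while the regions as a whole differed severalfold and were shallowest there. Both cKO depths exceeded both Ctrl depths at 237 of the 1122 (21.1%, beside the 8.34% above) and both fell short of them at 82 (7.31%, beside 3.73%). The remaining 803 overlapped. The 8.34% and 3.73% stand for 255 and 114 of the 3058. As the 3058 include the repeat-derived regions, these are not the rates of regions elsewhere. With Ctrl replicate 1 alone as control, 679 (60.5%, beside 25.4% of the 3058) were higher in both cKO libraries, and the median log2 ratio of the cKO mean to Ctrl was 0.32, against 0.11 with both Ctrl libraries. Over all regions in all 4 lists these medians were −0.48 and 0.12, so that with Ctrl replicate 1 alone the sign for repeat-derived regions was opposite to that for the regions as a whole. Every region compared here still had a peak in Ctrl replicate 2. Depths are not given for the 1253 repeat-derived and 8167 other distal regions in all 3 lists besides it.

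Alignment of the 300 bases around each summit grouped the 5007 regions into 1278 families, where regions were joined, directly or through others, by at least 80% identity over at least 200 bases. Of these families, 1162 were single regions and 19 had 10 or more. The 3 largest had 1429, 912 and 798 regions, 62.7% of all. No repeat annotation was used, so families are described by their own sequence and are not given a class.

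Family 1 had a median GC content of 43.4%, few CpG dinucleotides (observed over expected 0.15) and a median of 2173 copies of the summit bases. Its regions had a median width of 1159 bp, 76.7% were intergenic, and 510 (35.7%) were in all 4 lists, the highest share among the 10 largest families. The strongest (chr2:95285739-95290417), 106.1 kb from the nearest TSS, ranked 3937, 90, 167 and 1467, at depths of 29.0, 35.5, 36.6 and 40.4 times the mean in Ctrl replicates 1 and 2 and cKO replicates 1 and 2. Lists held 49.3%, 79.3%, 64.2% and 58.9% of its regions in that order. Where all 4 did, 127 regions (24.9%) had both cKO depths above both Ctrl depths and 35 (6.86%) had them below, close to the 21.1% and 7.31% of all repeat-derived regions in all 4 lists. A family's share in all 4 lists cannot exceed the lowest share held by any list. For family 1 that was the 49.3% of Ctrl replicate 1. For families 7 and 9 it was the 14.7% and 10.3% of Ctrl replicate 2. Ctrl replicate 1 and cKO replicate 2 each held more of families 7 and 9 than of family 1.

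Family 2 carried the arrangement known from the promoters of full-length L1. Its median GC content was 63.7% and its CpG ratio 0.61. In 757 of its 912 regions (83.0%) the 1600 bases around the summit repeated themselves at an interval of 100 to 400 bp with at least 50% identity, with a median interval of 208 bp (quartiles 208 and 212). Within 8 kb, 660 (72.4%) had an open reading frame of at least 1000 codons counted from stop to stop. The median of the longest frame was 1300 codons, and it opened a median of 2006.5 bp downstream of the summit (quartiles 1822 and 2255). A second frame of the same strand was looked for only among those of 350 to 600 codons. In 744 regions (81.6%) one, with a median of 384 codons, ended within 200 bases of that opening. Families 1 and 3 had such a pair in 16.4% and 2.38% of regions, and neither had any region with a repeated interval, which was found in 43.8%, 18.4% and 81.6% of families 4, 5 and 6, the tandem-rich families.

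Lists held 34.2%, 84.4%, 50.7% and 64.3% of the family 2 regions in Ctrl replicates 1 and 2 and cKO replicates 1 and 2, that is 312, 770, 462 and 586 regions. Here too the Ctrl libraries were the extremes. Median depth of the called peaks was 6.16, 5.77, 6.27 and 7.20 times the mean. Of the 227 regions in all 4 lists, 49 (21.6%) were deeper in both cKO libraries and 12 (5.29%) shallower, beside 8.34% and 3.73% of all autosomal regions in all 4 lists and 21.1% and 7.31% of the repeat-derived ones. Of the whole family, 16 regions (1.75%) were in both cKO lists alone and 18 (1.97%) in both Ctrl lists alone, beside 0.693% and 0.287% of all autosomal regions. The strongest (chr2:23938312-23940854) had depths of 23.4, 33.2, 29.9 and 25.5 times the mean, so the groups overlapped.

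Family 3 was found mainly in the libraries with few peaks elsewhere. Lists held 21.4%, 74.3%, 47.7% and 29.6% of its regions, and only 39 (4.89%) were in all 4. With 145 regions, the pattern of Ctrl replicate 2 and cKO replicate 1 alone was common in it. Of the whole family, 14 regions (1.75%) were in both cKO lists alone and 38 (4.76%) in both Ctrl lists alone. The shares were 0.693% and 0.287% of all autosomal regions, and 1.498% and 2.28% of the repeat-derived ones. Its GC content was 45.2%, its CpG ratio 0.11, its median copy number 448.5, and called peaks had the lowest depths of the 3 families at 5.55, 4.91, 5.30 and 5.54 times the mean. The strongest region lay in an intron of Arhgap24, which encodes a GTPase-activating protein (chr5:102699489-102702355), at 21.6, 39.3, 38.6 and 34.3 times the mean.

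**Figure D5:**
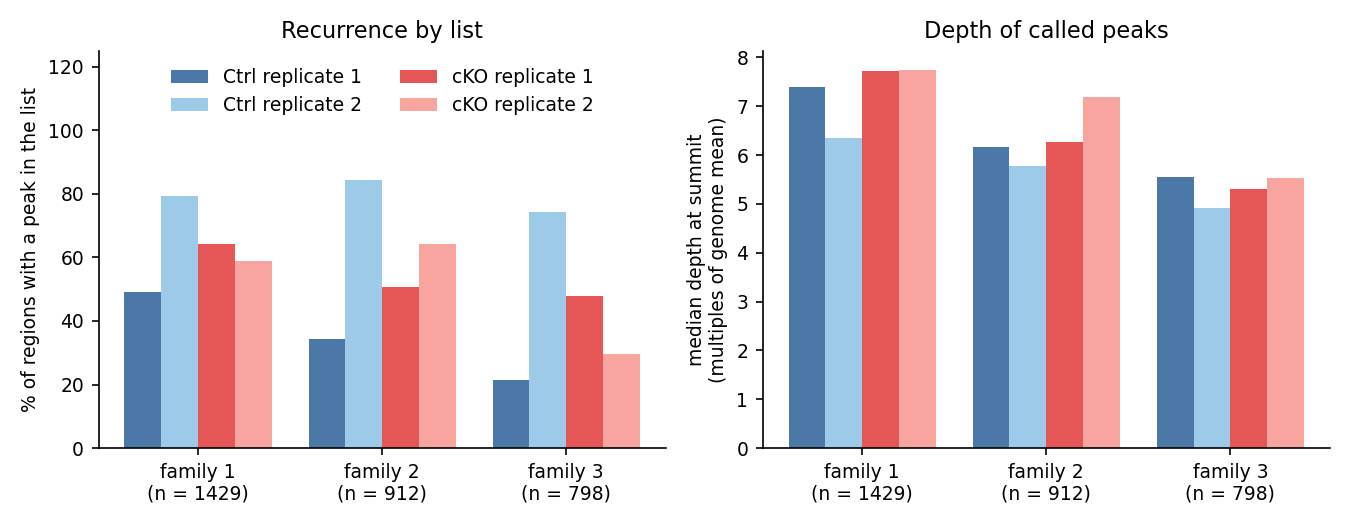
For the 3 largest sequence families, the left panel gives the percentage of regions with a peak in each list and the right panel the median depth of the called peaks in multiples of the mean genome depth, with 1 bar per library. In each family Ctrl replicate 2 has the highest percentage and the lowest median depth.

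Smaller families showed other patterns. Family 7, with 34 regions and a CpG ratio of 0.76, was held at 76.5%, 14.7%, 35.3% and 82.4%, and family 9, with 29 regions and a ratio of 0.88, at 79.3%, 10.3%, 27.6% and 82.8% in Ctrl replicates 1 and 2 and cKO replicates 1 and 2. In both, cKO replicate 2 was highest and Ctrl replicate 2 lowest, whereas in family 3 Ctrl replicate 2 was highest and Ctrl replicate 1 lowest. In family 9, 27 regions lay by an open frame of at least 1000 codons. Over the whole family, the longest frame opened at a median of −690 bp from the summit. Families 4, 5 and 6, of 80, 49 and 49 regions, were rich in tandem repeats, which filled a median of 42.2%, 86.4% and 69.3% of their bases.

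Short motifs of transcription factors were looked for in the 300 bases around each summit, on both strands. AAGATGGCG, the letters of a YY1 site, was in 9.33% of the repeat-derived regions and 0.177% of the other distal regions (1.31% of all distal regions together). Within families it was in 47.3% of family 2, 0.14% of family 1 and no region of family 3. CAGCTG, an E-box, was in 60.8% of family 3, 1.89% of family 1 and 16.3% of all repeat-derived regions, beside 26.1% of the other regions (24.9% together). The second E-box, CAGATG, was in 24.2% and 35.1% (33.7% together), but in 37.0% of family 1. TAATTA, a homeodomain site, was in 4.41% and 16.7% (15.1% together), and TGANTCA, an AP-1 site, in 2.82% and 10.3% (9.41% together).
The remaining 3 motifs were also rarer in repeat-derived regions as a whole. CNCTNGTGG of CTCF was in 3.196% and 4.82% (4.62% together), though in 7.39% of family 3, ATCAAAG of TCF/LEF in 1.96% and 4.88% (4.52% together), and TGACGTCA of CRE in 0.16% and 0.433% (0.399% together). Members of a family share sequence, so their matches are not independent.

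By position, 66.3% of the regions were intergenic, 33.4% intronic and 0.28% exonic, beside 45.0%, 51.4% and 3.61% of the other distal regions. Their median distance to a TSS was 24.8 kb (22.6 kb for the others). Density ran from 1.22 regions per Mb on chromosome 11 to 2.60 on chromosome 3. Over the 19 autosomes it went with the masked share of the chromosome, at Pearson's r = 0.85 and Spearman's rho = 0.79, as a description of chromosomes that all come from the same 4 libraries. Masking enters the rule, and this relation is in part built in.

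Regions lay in 1076 protein-coding genes, 882 of which held 1. C130026I21Rik, Cntnap2, a neuronal adhesion gene, and Fhit, at a fragile site, held 7 each, and Fgf14 and Fgfr2, a fibroblast growth factor receptor gene, held 6 each. These are long genes, with 0.20 to 0.86 regions per 100 kb except C130026I21Rik (2.52). Sfi1, a centrosome gene of 61.6 kb, held 5, or 8.12 per 100 kb.

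Few repeats have an annotation in RefSeq. Aligned to the 1 annotated B1 SINE (B1_Mus2, chr7:103823699-103823836), 17, 28, 19 and 16 members of Ctrl replicates 1 and 2 and cKO replicates 1 and 2 matched, or 0.734% of all members, and 64 other distal peaks, or 0.0987%. One annotated long terminal repeat, LTRIS4, matched 1 member, in Ctrl replicate 2. No member matched the mitochondrial genome, though 1, 1, 2 and 2 other distal peaks did.

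Just inside the masking threshold were peaks at chr10:22142302-22142681 in cKO replicate 1 and chr10:67299218-67299565 in Ctrl replicate 1, both with 50% masked. Just outside were chr13:63165480-63166028 in cKO replicate 2 and chr16:13552798-13553238 in Ctrl replicate 1, at 49.9%. For distance, 2005 bp (chr19:9828942-9829318) and 2014 bp (chr1:180242771-180244565, by Psen2, both cKO replicate 2) were just inside. At 1998 bp the cKO replicate 1 peak over the same Psen2 region (chr1:180242956-180244653) was just outside, as was one at 1996 bp from Optn in Ctrl replicate 2 (chr2:5065826-5067105), so a single region can be a member in 1 list and not in another.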

How the data were processed

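ATAC-seq peak lists of 2 cKO and 2 Ctrl libraries were used, grouped by sample titles. By the methods of the study, the authors used Cutadapt to trim reads and Bowtie2 to align to mm10. They discarded blacklisted regions (rich in repeats), mitochondrial reads and duplicates, shifted reads for the Tn5 offset and called peaks with MACS2 2.2.7.1. Each library has its own deposited list, and the methods name no control for this step. No filter on mapping quality is stated there, and reads trimmed short place less surely in repeats. The deposited lists give positions, a display score (not used), a fold enrichment, which is a ratio to local background, −log10 p-values, −log10 q-values and the summit offset. The deposited −log10 p-values ranked peaks within a list only. Tied ranks share a percentile.

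Summit depth in whole fragments was recovered from the deposited fold and −log10 p by the Poisson tail, which gave a whole number for 100% of peaks (to within 0.01 or rounding), and was divided by the library's mean genome depth, 1.62 to 3.46 fragments. Masking was that of the RefSeq GRCm38.p6 sequence, whose method is not given in the sources used here, and TSSs were of GENCODE M21 basic transcripts. Families came from BLAST+ 2.17.0 on 300-base windows. The 4 values per library were compared as cKO minus Ctrl by exact two-sided permutation over 6 assignments of libraries, with Benjamini-Hochberg adjustment. Alternatives were other masking, distance and q limits, lists of equal size, leaving out each library and pairing by replicate number. Steps were tested on simulated data, with Python 3.11.15 and scipy 1.17.1. Named regions were the 6 with the highest mean percentile in all 4 lists, the 3 strongest members of each list, the 3 strongest held by 1 group alone, 2 on each side of each threshold, the strongest of each of the 5 largest families and the 5 genes holding most regions, with ties and Sfi1 added after the values were seen. The members and lists were chosen with earlier results of these data known. Peaks on the sex chromosomes were left out. Some items that this rule names are not reported here.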

Additional observations from a re-analysis of the deposited data

How the results depend on the processing

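The differences between cKO and Ctrl depended on both Ctrl libraries, and their sign on Ctrl replicate 2. Leaving out each library in turn moved the difference in number from −877.5 to 582.5 peaks, in share from −59.4 to 9.03 percentage points, in bases covered from −1177 to 731 kb and in median percentile from −19.4 to 8.004, and the sign turned each time when Ctrl replicate 2 was left out. The number of regions in at least 2 lists ranged from 2162 to 2624 with 3 libraries. With lists of equal size (7037 peaks) the differences were −1420 peaks, −1241 kb and 17.4 percentile points, and 609 regions were in at least 2 lists. That count was 4868 with at least 25% of bases masked and 1633 at a −log10 q of at least 5. Some settings were chosen after seeing the data. Of these, summits with 1 copy gave a difference of 53 peaks and 42.3 kb, with 834 regions in at least 2 lists. Depths of at least 20 fragments gave differences of −406.5 peaks, −465 kb and 1.19 percentile points, with 850 such regions. The cause of these shifts was not tested. Other settings kept the sign of the difference, though with at least 25% of bases masked the cKO and not the Ctrl libraries had the lowest and highest numbers, and the regions in at least 2 lists stayed within 1.5 times.

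In a paired comparison with a replicate block the differences were −147.5 peaks, −25.2 percentage points, −223 kb and −5.72 percentile points, the smallest possible p being 0.5. Across regions in all 4 lists, the log2 differences between replicates 1 and 2 of Ctrl and of cKO correlated at −0.01 over repeat-derived and −0.82 over all autosomal regions; with crossed numbers, too, 0 of 4 differences passed a threshold. The labels do not say that the numbers pair samples. With 2 libraries a group, no difference could pass 0.05 by the exact tests used.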

Other observations

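On the sex chromosomes, which the definition leaves out, peaks at least 50% masked and over 2 kb from a TSS numbered 235, 408, 300 and 360 on X in Ctrl replicates 1 and 2 and cKO replicates 1 and 2. On Y there were 51, 124, 74 and 28.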
